A study of Jaltomata procumbens and Jaltomata herrerae with 23 samples.

Results

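Floral nectaries of Jaltomata herrerae harvested once the petals had dropped (post-secretory, 3 libraries) were compared with nectaries of the same species harvested in the open flower during nectar secretion (secretory, 3 libraries). These 6 libraries were taken by their labels from the 23 of a series on nectaries and leaves of J. herrerae and J. procumbens, wild relatives of tomato. Both groups came from soil-grown plants in 1 growth facility, were dissected by hand and were extracted at once. Secretory nectaries were collected 3 to 6 h after dawn, whereas the labels give no hour for post-secretory nectaries. The labels call the replicates A, B and C and do not say that they are separate plants, so each p-value measures only the spread between these samples, which may be technical. RNA was measured in whole dissected tissue, in which fewer cells of a type and less RNA per cell cannot be told apart.

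Nectaries are glands that turn stored starch and incoming sugar into nectar. In Arabidopsis the sucrose synthesised in the gland leaves the cell through the exporter SWEET9, and cell wall invertase outside the cell splits it into hexoses. The nectar of J. herrerae is red, and its pigment forms from proline and sinapaldehyde, an intermediate of the monolignol pathway. After flowering a nectary may be shed, break down or, where it sits at the base of the ovary, persist on the growing fruit.

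The deposited table lists 13170 Arabidopsis loci with their TPM values (a level per transcript length) rounded to whole numbers. Gene symbols below name the Arabidopsis locus to which the authors matched the Jaltomata transcripts, and roles are those known in Arabidopsis. Levels are given as rescaled TPM, meaning that each library was divided by its median ratio to the 6-library average. A deposited value of 1 TPM became 0.666 to 0.781 in post-secretory and 1.17 to 1.78 in secretory libraries, and this rounding step limits low values. Log2 changes are differences of mean log2(rescaled TPM + 1), post-secretory minus secretory, and understate the change of low genes. Calls are loci with an adjusted p under 0.05 in limma.

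The stages differed widely. Of 12421 loci tested, 7765 (62.5%) were called, 4346 higher (35%) and 3419 lower (27.5%) in post-secretory nectaries. Counts of called members of the gene lists below are to be read beside these shares. A member at 0 in every library of 1 stage passed the filter (1 TPM in 3 or more libraries) through the other stage alone. Its direction was fixed and adds nothing to such a count. At an unadjusted p under 0.05 the number was 8244 (66.4%). All post-secretory values lay above all secretory ones for 4900 loci (39.4%) and below them for 3771 (30.4%). Many genes named below were picked for a lack of overlap, so its mention there describes them and adds no support. A test against a 2-fold change called 1784 loci (14.4%), 1100 of them higher (8.86%) and 684 lower (5.51%). Without post-secretory library B that test called 1181 loci, 446 of them lower. The split between higher and lower depended on the scaling: 56% of calls were higher with median ratios, 90.4% with TPM as deposited and 74.9% with the 3 highest loci left out. Under all 5 scalings tried, 3037 loci (24.5%) were called higher and 745 (6%) lower. These are called stable to scaling below. Over all tested loci the median log2 change was 0.158 with median ratios and 0.928 as deposited, a shift of 0.77 between the medians. The shift of single genes differed from this. For example, SWEET7 changed by -1.51 with median ratios and -0.605 as deposited, and BOP2 by -1.16 and -0.421.

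**Figure D1:**
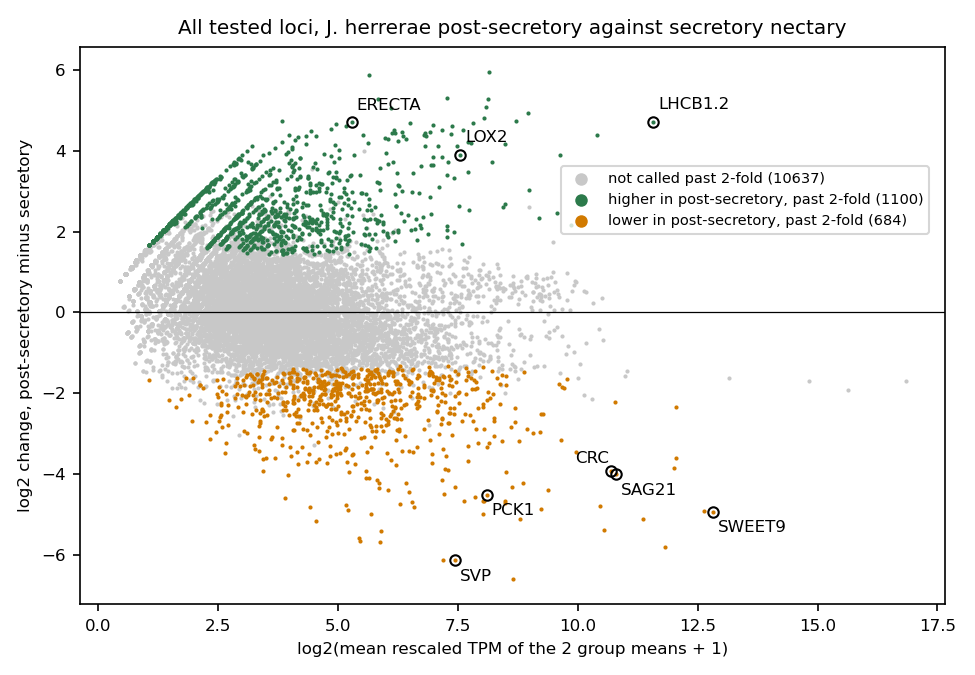
Each point is 1 of the 12421 tested loci, placed by its mean level over both stages (horizontal axis, log2 of rescaled TPM + 1) and its log2 change, post-secretory minus secretory (vertical axis). Of the loci past 2-fold, 1100 lie above 0 and 684 below, with 8 genes of the text circled, among them SWEET9 at -4.93 and ERECTA at 4.71.

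Within groups the libraries were alike, and between groups they stood apart. Correlations across loci of log2 levels were 0.953 to 0.965 among post-secretory libraries, 0.952 to 0.972 among secretory libraries and 0.732 to 0.806 between the stages. Post-secretory libraries correlated at 0.814 to 0.871 with the 3 pre-secretory nectary libraries and at 0.779 to 0.845 with the 2 leaf libraries of the species. The loci AT5G50290, AT5G36210 and AT2G01021 held 13.7 to 24.57% of the listed TPM in post-secretory and 30.45 to 48.75% in secretory libraries, with log2 changes of -1.69, -1.92 and -1.71 and no overlap of the groups. None of the 3 was called in limma (adjusted p = 0.23, 0.0653 and 0.0516), but all 3 were called lower with a pseudocount of 5, with a filter on mean TPM or with no variance trend (adjusted p = 0.00432 to 0.0336). AT5G36210 was also called lower as deposited (adjusted p = 0.0488), and AT2G01021 with no filter (0.0493) or without secretory B (0.0499). In all, 12364 to 12449 loci reached 1 TPM in post-secretory and 11331 to 11396 in secretory libraries. That cut of 1 TPM is 0.666 to 0.781 rescaled TPM in post-secretory and 1.17 to 1.78 in secretory libraries, so it is stricter in the latter. TPM also keeps no read depth. Whether the lower number reflects this cut or depth was not tested.

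Transcripts for sugar export were lower after petal fall. SWEET sugar transporters summed to 914.1 to 2546 rescaled TPM in post-secretory and 19400 to 25780 in secretory libraries. Of 12 tested members, 5 fell, 1 rose and 6 were not called, with a list median of -1.11. SWEET9, the nectary sucrose exporter, stood at 571, 289 and 566 rescaled TPM in post-secretory libraries A, B and C and at 12170, 14826 and 14782 in secretory libraries A, B and C (log2 change -4.93, SE 0.32, adjusted p = 8.29e-05). SWEET11, a sucrose exporter of the phloem, had 360, 395 and 1596 rescaled TPM in post-secretory and 6493, 10297 and 6183 in secretory libraries (log2 change -3.61, SE 0.59, adjusted p = 0.00184). Neither gene's groups overlapped, and post-secretory C was the highest post-secretory library for SWEET11, which was not called under quantile normalization (adjusted p = 0.0564). SWEET15, also called SAG29 for its rise in ageing leaves, fell as well, with 36.7, 16.8 and 14 rescaled TPM in post-secretory against 78.4, 159 and 144 in secretory libraries (log2 change -2.51, SE 0.40, adjusted p = 0.00175). SWEET4 (log2 change -2.01) and SWEET7 (-1.51), both hexose transporters, were the other members that fell. SWEET17 was the riser, at 1 TPM as deposited in each post-secretory library and listed at 0 in all secretory ones. On the deposited scale SWEET7 was not called (adjusted p = 0.277), nor was SWEET4 (0.054) with the spread taken over all 23 libraries.

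Sucrose synthesis and cleavage followed the exporters in direction. Of 13 tested members 7 fell, 5 of them past 2-fold and stable to scaling, and none rose. The list summed to 389.5 to 969 rescaled TPM in post-secretory against 2248 to 3057 in secretory nectaries. SUS4, a sucrose synthase, had 89, 67.2 and 132 rescaled TPM in post-secretory and 724, 742 and 565 in secretory libraries (log2 change -2.85, SE 0.25, adjusted p = 0.000183). The sucrose-phosphate synthases SPS3F (log2 change -2.28) and SPS1F fell. SPS1F stood at 142, 80.4 and 87.2 rescaled TPM in post-secretory against 351, 385 and 375 in secretory libraries (log2 change -1.88, SE 0.22, adjusted p = 0.000443). For both enzymes every post-secretory value lay below every secretory value. CWINV2, a cell wall invertase, had 149, 103 and 328 rescaled TPM in post-secretory and 898, 1186 and 922 in secretory libraries (log2 change -2.53, SE 0.40, adjusted p = 0.00164). CWINV4, the invertase needed for nectar in Arabidopsis, had overlapping groups, with 12.5, 27.8 and 200 rescaled TPM in post-secretory and 50.3, 328 and 185 in secretory libraries (log2 change -1.78, SE 1.08, adjusted p = 0.189). Without post-secretory C it was called lower (log2 change -2.89, adjusted p = 0.0297), and leaving out each library in turn gave changes of -2.89 to -0.95. With the spread of all 23 libraries, SUS4 (adjusted p = 0.17) and CWINV2 (0.133) did not pass.

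Uptake carriers did not move as a group. Of 9 tested sucrose and hexose importers 4 rose (44.4%, against 35% of all tested loci) and 2 fell (22.2%, against 27.5%). Their sum was 85.49 to 119.5 rescaled TPM in post-secretory and 78.37 to 115.9 in secretory libraries. STP7, a monosaccharide importer, had 3.91, 2.19 and 2 rescaled TPM in post-secretory against 48, 37.4 and 46.4 in secretory libraries (log2 change -3.63, SE 0.22, adjusted p = 7.45e-05). PMT5, a polyol and monosaccharide importer, went the other way, with 53.9, 34.3 and 38.6 rescaled TPM in post-secretory and 5.85, 2.41 and 5.35 in secretory libraries (log2 change 3.01, SE 0.30, adjusted p = 0.000253). The groups overlapped for neither. The number of importers that fell was 1 without post-secretory A or C, and PMT5 did not pass with the spread of all 23 libraries (adjusted p = 0.0811).

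Starch metabolism split by enzyme. Among 17 tested genes of starch synthesis 9 rose, all of them stable to scaling, and 3 fell. The risers lie along the plastid route to starch: PGM1 (phosphoglucomutase), APS1 (the small subunit of ADP-glucose pyrophosphorylase), GPT2 (glucose-6-phosphate import) and the starch synthases SS1, SS2 and SS4. PGM1 had 72.6, 96.5 and 89.2 rescaled TPM in post-secretory and 11.7, 12.1 and 14.3 in secretory libraries (log2 change 2.67, SE 0.14, adjusted p = 6.39e-05). SS2 had 25, 33.6 and 25.3 rescaled TPM in post-secretory against 0, 1.21 and 1.78 in secretory libraries (log2 change 3.97, SE 0.38, adjusted p = 0.000217). Groups were apart for both. PGI1, APL2 and SS3 fell (log2 change -1.60, -1.08 and -0.89), none of them under all 5 scalings.

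Of 21 tested genes of starch breakdown 9 rose (42.9%, against 35% of all tested loci) and 9 fell (42.9%, against 27.5%). Among the risers AMY1 was listed at 0 in all secretory libraries and could only be higher. BAM1, a plastid β-amylase, had 59.4, 48.2 and 33.3 rescaled TPM in post-secretory and 296, 774 and 440 in secretory libraries (log2 change -3.32, SE 0.37, adjusted p = 0.000366). It was the only faller of the list that was stable to scaling. AMY3, a plastid α-amylase, and SEX4, a phosphoglucan phosphatase, fell by 1.45 each on the log2 scale. PHS1, the plastid starch phosphorylase, had 248, 317 and 278 rescaled TPM in post-secretory against 21.1, 24.1 and 32.1 in secretory libraries (log2 change 3.41, SE 0.18, adjusted p = 6.39e-05). DPE1, which rearranges short glucans, also rose (log2 change 2.35, SE 0.20, adjusted p = 0.000161).

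**Figure D2:**
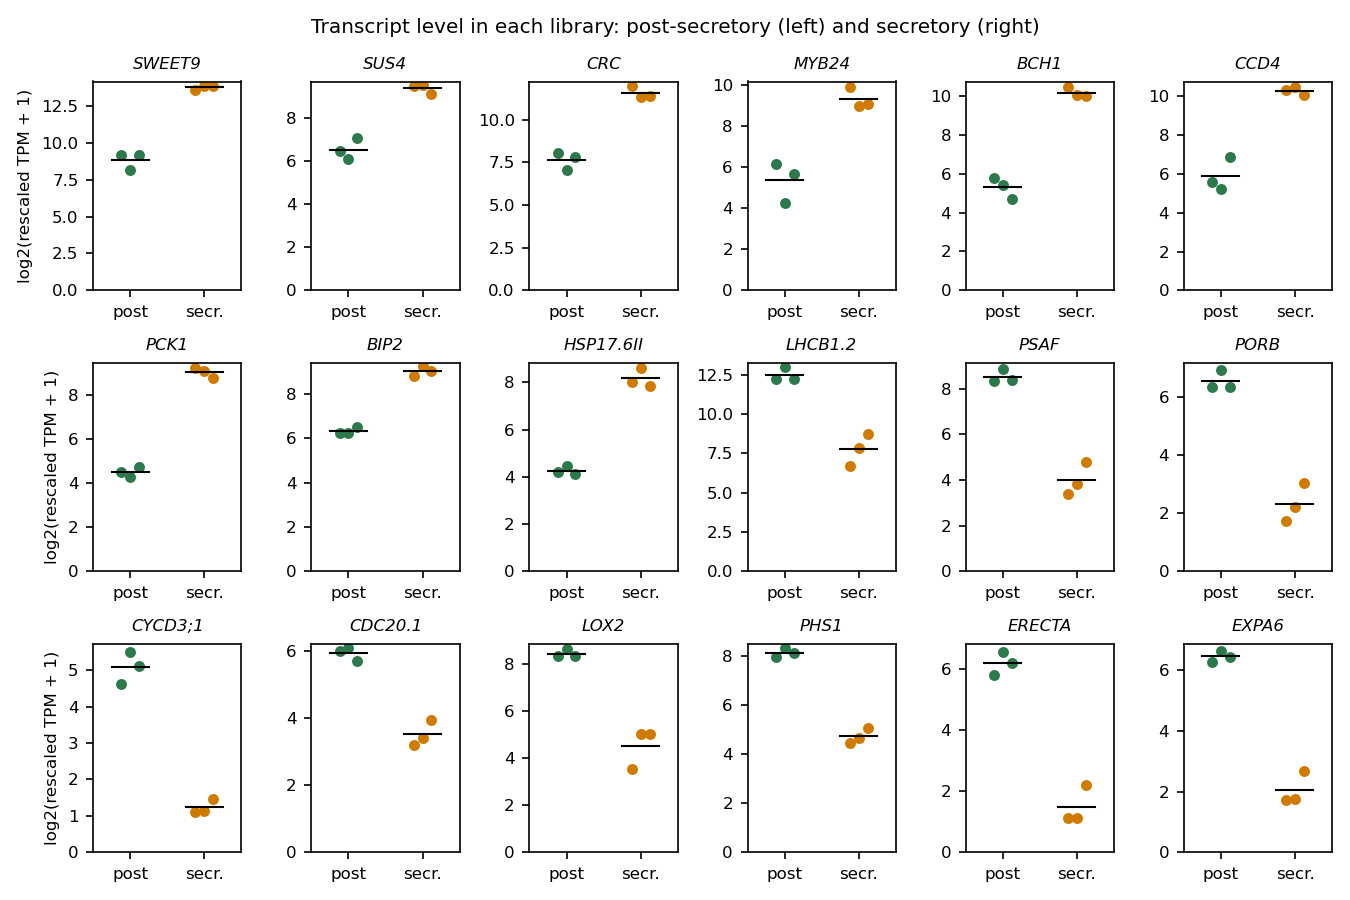
Levels of 18 genes in each library, on a log2 scale of rescaled TPM + 1 (vertical axis), with the 3 post-secretory libraries left of the 3 secretory libraries in each panel and a line at the group mean. The groups do not overlap in any of the 18 panels: the first 9 genes are lower and the last 9 higher in post-secretory nectaries.

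Regulators of nectary and late flower development were lower in post-secretory nectaries. The 6 tested markers of the nectary summed to 469.1 to 1046 rescaled TPM in post-secretory and 17300 to 18270 in secretory libraries, most of it from the exporter SWEET9 described above, and 5 of the 6 fell. CRC, the YABBY factor required for nectaries to form in Arabidopsis, had 264, 131 and 226 rescaled TPM in post-secretory and 4047, 2573 and 2659 in secretory libraries (log2 change -3.92, SE 0.31, adjusted p = 0.000129). MYB21, a jasmonate-dependent factor of late flower development, was at 0.781, 0 and 0 rescaled TPM in post-secretory against 63.2, 30.1 and 39.2 in secretory libraries (log2 change -5.15, SE 0.34, adjusted p = 8.34e-05). Its relative MYB24 had 71.9, 18.3 and 50.6 rescaled TPM in post-secretory and 962, 508 and 551 in secretory libraries (log2 change -3.96, SE 0.50, adjusted p = 0.000617). For each of the 3 factors all post-secretory values lay below all secretory ones. BOP2, which acts in nectary formation, fell by 1.16 on the log2 scale but not on the deposited scale (adjusted p = 0.29). With the spread of all 23 libraries CRC (adjusted p = 0.108) and MYB24 (0.0737) did not pass.

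Floral MADS box factors, which set organ identity, mostly fell. Of 15 tested members 9 fell, 6 of them under all 5 scalings, and 1 rose. SVP, a repressor of flowering, had 6.25, 3.65 and 1.33 rescaled TPM in post-secretory and 143, 464 and 412 in secretory libraries (log2 change -6.14, SE 0.56, adjusted p = 0.000189). It stood at 0.664 to 2.74 rescaled TPM in pre-secretory nectaries, so the secretory libraries were the high ones among the 3 stages. AG, the carpel and stamen identity factor, had 1.56, 1.46 and 1.33 rescaled TPM in post-secretory against 10.5, 13.3 and 14.3 in secretory libraries (log2 change -2.47, SE 0.16, adjusted p = 8.34e-05). SHP1, which acts with AG in carpels, had 106, 53.3 and 74.5 rescaled TPM in post-secretory and 276, 484 and 449 in secretory libraries (log2 change -2.37, SE 0.30, adjusted p = 0.000661). The values of AG and SHP1 did not overlap between stages. SHP2 (log2 change -3.61), PI (-2.44), SEP4 (-1.62), SEP1 (-1.35), AGL6 (-1.24) and AP3 (-0.91) were the other members that fell. SEP3 rose slightly, with 77.3, 81.1 and 85.2 rescaled TPM in post-secretory against 49.2, 61.5 and 67.8 in secretory libraries (log2 change 0.45, SE 0.14, adjusted p = 0.0251; not called without post-secretory B or C). AG (adjusted p = 0.0922) and SHP1 (0.256) did not pass with the spread of all 23 libraries. STK, an ovule identity factor, had overlapping groups (log2 change 0.01, SE 0.12, adjusted p = 0.947).

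Carotenoid enzymes fell as a block, with a small set of exceptions. Of 19 tested genes of carotenoid synthesis and cleavage 14 fell, 11 of them past 2-fold, and 3 rose, and the list median was -2.79. Their sum was 698.6 to 847.9 rescaled TPM in post-secretory and 5491 to 6557 in secretory nectaries. The fallers run from precursor supply (DXS, GGPS1) through phytoene synthesis and desaturation (PSY, PDS, ZISO, ZDS, CRTISO) to the β-branch (LCYB, BCH1, BCH2). BCH1, a β-carotene hydroxylase, had 53.1, 42.4 and 24.6 rescaled TPM in post-secretory and 1394, 1062 and 1009 in secretory libraries (log2 change -4.87, SE 0.29, adjusted p = 7.08e-05). CCD4, which cleaves carotenoids in plastids, had 47.6, 36.5 and 115 rescaled TPM in post-secretory against 1260, 1441 and 1068 in secretory libraries (log2 change -4.39, SE 0.40, adjusted p = 0.000193). In both, even the highest post-secretory value lay far below the lowest secretory value. OR, which promotes PSY protein and chromoplast formation, fell by 2.41 on the log2 scale (SE 0.22, adjusted p = 0.000183). The 3 that rose belong to the lutein branch and the xanthophyll cycle, which serve the photosynthetic membrane: LCYE, LUT1 and VDE. VDE, violaxanthin de-epoxidase, had 13.3, 23.4 and 16 rescaled TPM in post-secretory and 0, 1.21 and 1.78 in secretory libraries (log2 change 3.30, SE 0.40, adjusted p = 0.000543).

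Photosynthesis genes rose almost without exception. Of 37 tested genes of light harvesting and the photosystems 36 rose, all of them stable to scaling and 32 past 2-fold, and the list median was 4.17. They summed to 14910 to 25160 rescaled TPM in post-secretory and 588.7 to 1626 in secretory nectaries. LHCB1.2, a chlorophyll a/b antenna protein of photosystem II, had 4751, 7968 and 4860 rescaled TPM in post-secretory and 103, 227 and 417 in secretory libraries (log2 change 4.73, SE 0.50, adjusted p = 0.000313). LHCB2.1, another antenna protein, had 409, 772 and 436 rescaled TPM in post-secretory against 5.85, 9.65 and 30.3 in secretory libraries (log2 change 5.30, SE 0.55, adjusted p = 0.000293). PSAF, a photosystem I subunit, had 316, 465 and 327 rescaled TPM in post-secretory and 9.36, 13.3 and 26.8 in secretory libraries (log2 change 4.51, SE 0.36, adjusted p = 0.000129). In all 3 genes post-secretory B was the highest library and secretory A the lowest, with no overlap. PSBO1, of the water-splitting complex, rose by 4.17 on the log2 scale. FNR1, which reduces NADP+, was the member not called (log2 change 0.47, SE 0.21, adjusted p = 0.0936). How the authors divided reads among near-identical LHCB1 copies is not given, so single LHCB1 values are uncertain. LHCB1.2 (adjusted p = 0.0508) and LHCB3 (0.051) did not pass with the spread of all 23 libraries.

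Chlorophyll synthesis rose with the antenna genes: 11 of 13 tested members were higher, 10 of them under all 5 scalings, and none was lower. PORB, the light-dependent protochlorophyllide reductase, had 79.7, 119 and 79.2 rescaled TPM in post-secretory and 2.34, 3.62 and 7.13 in secretory libraries (log2 change 4.2, SE 0.34, adjusted p = 0.000131). CHLM, a methyltransferase of the pathway, had 7.81, 18.3 and 10.6 rescaled TPM in post-secretory libraries and was listed at 0 in all 3 secretory ones, so it could only be higher. HEMA1, the first committed enzyme, and CHLI2, a subunit of magnesium chelatase, rose by 2.17 and 2.80 on the log2 scale. The last step, CHLG, had 21.1, 29.2 and 24 rescaled TPM in post-secretory and 21.1, 25.3 and 17.8 in secretory libraries (log2 change 0.20, SE 0.17, adjusted p = 0.34).

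Calvin cycle genes rose too, to a lower level relative to leaf. Of 12 tested members 10 rose and none fell, with a median of 2.48. RBCS1A, a small subunit of Rubisco, had 280, 2041 and 391 rescaled TPM in post-secretory and 58.5, 109 and 150 in secretory libraries (log2 change 2.61, SE 0.75, adjusted p = 0.0196), with post-secretory B far above the others, and it was not called without secretory A (adjusted p = 0.0546). SBPASE, which regenerates the CO2 acceptor, had 11.7, 27.8 and 13.3 rescaled TPM in post-secretory against 1.17, 2.41 and 1.78 in secretory libraries (log2 change 2.66, SE 0.34, adjusted p = 0.000636). Rubisco activase RCA had overlapping groups (log2 change -0.41, SE 0.47, adjusted p = 0.468), as did TKL1 (-0.11, SE 0.16, adjusted p = 0.577). Relative to the mean of the 2 leaf libraries, light harvesting and photosystem transcripts summed to 10.9 to 18.5% in post-secretory and 0.432 to 1.19% in secretory nectaries, and chlorophyll synthesis to 15.5 to 24.3% in post-secretory and 3 to 4.04% in secretory nectaries. The Calvin cycle list reached 0.712 to 3.14% of leaf in post-secretory and 0.206 to 0.379% in secretory nectaries. The share of leaf tissue in the dissected material was not tested. With the spread of all 23 libraries RBCS1A (adjusted p = 0.464) and SBPASE (0.186) did not pass, and RBCS copies share the uncertainty of LHCB1.

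Cell division genes were higher in every tested case, though for some of them no other direction was possible. All 15 tested mitotic genes rose, 13 past 2-fold and all 15 under the 5 scalings, and they summed to 258.2 to 323 rescaled TPM in post-secretory and 72.34 to 84.26 in secretory libraries. CDC20.1, an activator of the anaphase-promoting complex, had 63.3, 66.5 and 51.2 rescaled TPM in post-secretory and 8.19, 9.65 and 14.3 in secretory libraries (log2 change 2.41, SE 0.21, adjusted p = 0.000166). CYCB1;2, a mitotic cyclin, had 20.3, 24.8 and 17.3 rescaled TPM in post-secretory against 0, 0 and 1.78 in secretory libraries (log2 change 3.94, SE 0.41, adjusted p = 0.0003). KNOLLE, the syntaxin of the cell plate, had 15.6, 16.1 and 12.6 rescaled TPM in post-secretory and 1.17, 1.21 and 1.78 in secretory libraries (log2 change 2.73, SE 0.17, adjusted p = 7.78e-05). None of these genes had overlapping groups. CDKB1;1, CYCB2;2, CYCB2;3, CYCA2;2, CYCB1;4 and HINKEL were listed at 0 in all secretory libraries. These passed the filter through the post-secretory libraries alone and could only be higher, so their direction adds nothing to the count. AUR1, a mitotic kinase, rose by 2.19 on the log2 scale, and CDKA;1, expressed through the whole cycle, by 0.55.

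Entry into the cycle and DNA replication went the same way, with 16 of 22 tested members higher and 1 lower. CYCD3;1, a D-type cyclin that drives division, had 23.4, 44.6 and 33.3 rescaled TPM in post-secretory and 1.17, 1.21 and 1.78 in secretory libraries (log2 change 3.83, SE 0.25, adjusted p = 7.94e-05). RNR1, a ribonucleotide reductase subunit, had 30.5, 32.9 and 40.6 rescaled TPM in post-secretory against 7.02, 4.82 and 7.13 in secretory libraries (log2 change 2.29, SE 0.18, adjusted p = 0.000129). The 6 MCM helicase subunits rose by 1.09 to 1.81 on the log2 scale and the sliding clamp PCNA1 by 1.54. CYCD4;1, another D-type cyclin, was the member that fell (log2 change -0.69, SE 0.18, adjusted p = 0.0146). Ribosomal protein genes, of which 7 of 16 tested rose and none fell, had called changes of under 1 on the log2 scale, of which that of RPL3A was the largest (log2 change 0.94, SE 0.23, adjusted p = 0.0102, or 0.122 with the spread of all 23 libraries), and 4 rose without secretory B, post-secretory B or post-secretory C. RPS15AA, not called, had 3.12, 1.46 and 57.2 rescaled TPM in post-secretory and 0, 0 and 3.57 in secretory libraries, with post-secretory C far above the others (log2 change 2.34, adjusted p = 0.136).

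**Figure D3:**
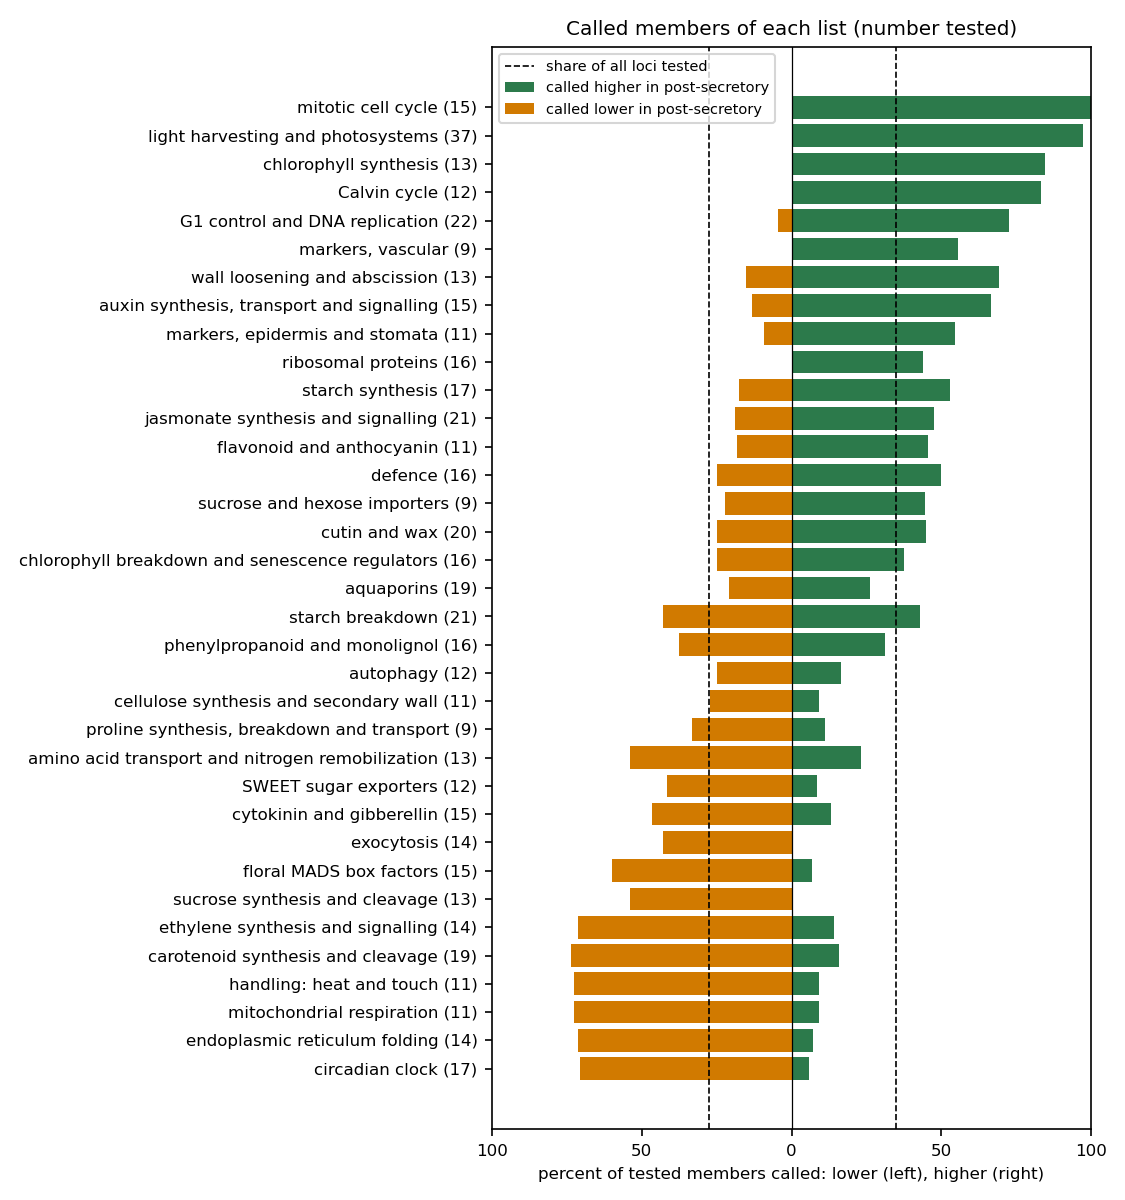
Bars give the percent of tested members of each list called lower (left) or higher (right) in post-secretory nectaries, for lists with at least 9 tested members, whose number stands in brackets. Dashed lines mark the same shares over all 12421 loci, 27.5% lower and 35% higher, and the mitotic, photosystem, chlorophyll and Calvin lists reach 83.3% or more on the right.

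Auxin genes were mostly higher. Of 15 tested members 10 rose, 9 of them under all 5 scalings, and 2 fell. ARF5, the factor also called MONOPTEROS, had 25, 42.4 and 25.3 rescaled TPM in post-secretory and 2.34, 2.41 and 3.57 in secretory libraries (log2 change 3.05, SE 0.24, adjusted p = 0.00013). ABCB19, an auxin exporter, rose by 2.69 on the log2 scale. The receptor TIR1 had 174, 164 and 178 rescaled TPM in post-secretory against 71.4, 72.3 and 82 in secretory libraries (log2 change 1.18, SE 0.11, adjusted p = 0.00018). ARF6 and ARF8, which act in flower maturation, rose by 1.23 and 1.22 on the log2 scale.

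Jasmonate genes moved in both directions. Of 21 tested members 10 rose (47.6%, against 35% of all tested loci), all stable to scaling, and 4 fell (19.05%, against 27.5%). The risers include lipoxygenases and later enzymes of synthesis. LOX2, a plastid lipoxygenase, had 326, 394 and 324 rescaled TPM in post-secretory and 10.5, 31.3 and 32.1 in secretory libraries (log2 change 3.91, SE 0.40, adjusted p = 0.000273). LOX3 and LOX6 rose by 3.63 and 2.47 on the log2 scale. AOS, which makes the allene oxide, had 20.3, 19.7 and 21.3 rescaled TPM in post-secretory against 2.34, 3.62 and 3.57 in secretory libraries (log2 change 2.38, SE 0.17, adjusted p = 9.37e-05). Of the JAZ repressors, JAZ2 and JAZ8 rose (log2 change 1.95 and 2.68) and JAZ6 fell (-1.53, SE 0.46, adjusted p = 0.0243). The receptor COI1 fell by 0.53 on the log2 scale, and only 2 members fell without any 1 of the post-secretory libraries. AOS did not pass with the spread of all 23 libraries (adjusted p = 0.0662).

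Ethylene genes were mostly lower with median ratios, with 10 of 14 tested members down and 2 up. Of the 10, only 3 were stable to scaling and 2 were past 2-fold. ACO4, an ACC oxidase that makes ethylene, had 448, 311 and 323 rescaled TPM in post-secretory and 1284, 1315 and 1238 in secretory libraries (log2 change -1.84, SE 0.18, adjusted p = 0.000234). EIN3, the main transcription factor of the pathway, had 71.9, 57.7 and 57.9 rescaled TPM in post-secretory against 194, 207 and 196 in secretory libraries (log2 change -1.66, SE 0.12, adjusted p = 0.000103). Both falls were stable to scaling, and the list median was -0.62 with median ratios and 0.22 as deposited. ERF1, a target of EIN3, had 4.69, 2.19 and 2.66 rescaled TPM in post-secretory libraries and was listed at 0 in secretory ones.

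Cytokinin and gibberellin genes fell in 7 and rose in 2 of 15 tested cases. ARR5, a primary response gene of cytokinin, had 24.2, 27 and 28.6 rescaled TPM in post-secretory and 110, 98.9 and 123 in secretory libraries (log2 change -2.01, SE 0.12, adjusted p = 7.62e-05). GA3OX1, which makes active gibberellin, was at 0.781, 0.731 and 0.666 rescaled TPM in post-secretory against 7.02, 9.65 and 10.7 in secretory libraries (log2 change -2.53, SE 0.19, adjusted p = 0.000111). Of 8 tested abscisic acid genes 3 rose (37.5%, against 35% of all tested loci) and 3 fell (37.5%, against 27.5%). HAB1, a phosphatase that restrains the response, had 30.5, 26.3 and 24 rescaled TPM in post-secretory and 109, 158 and 143 in secretory libraries (log2 change -2.29, SE 0.17, adjusted p = 0.000104). Of the 3 that rose (ABA2, NCED3 and AAO3), none was stable to scaling, and 1 rose when any 1 post-secretory library was left out.

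Proline and monolignol synthesis supply the red pigment. Of 9 tested proline genes 3 fell (33.3%, against 27.5% of all tested loci) and 1 rose. P5CR, the last step of proline synthesis, had 28.9, 19 and 11.3 rescaled TPM in post-secretory and 396, 450 and 663 in secretory libraries (log2 change -4.66, SE 0.34, adjusted p = 0.000106). The first step moved less: P5CS2 had 49.2, 49.7 and 59.9 rescaled TPM in post-secretory against 92.5, 102 and 94.5 in secretory libraries (log2 change -0.86, SE 0.12, adjusted p = 0.000837), and its change was 0.04 on the deposited scale. ProDH2, which breaks proline down, rose by 1.88 on the log2 scale (SE 0.15, adjusted p = 0.000129). P5CDH, the next step of breakdown, fell by 1.19. The other 5 of 9 tested members were not called. P5CS2 (adjusted p = 0.0786) and P5CDH (0.167) did not pass with the spread of all 23 libraries.

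Of 16 tested phenylpropanoid and monolignol genes 6 fell (37.5%, against 27.5% of all tested loci) and 5 rose (31.25%, against 35%). F5H1, the hydroxylase that leads to sinapyl units, had 21.1, 17.5 and 62.6 rescaled TPM in post-secretory and 213, 263 and 246 in secretory libraries (log2 change -3.02, SE 0.44, adjusted p = 0.00111). CAD5, which reduces the cinnamaldehydes, had 63.3, 23.4 and 65.2 rescaled TPM in post-secretory against 817, 845 and 977 in secretory libraries (log2 change -4.22, SE 0.38, adjusted p = 0.000184). HCT, earlier in the pathway, fell by 3.39 on the log2 scale. The groups of these 3 genes did not overlap. COMT1, the methyltransferase of the sinapyl branch, had 73.4, 78.2 and 437 rescaled TPM in post-secretory and 126, 327 and 280 in secretory libraries, overlapping because of post-secretory C (log2 change -0.73, SE 0.72, adjusted p = 0.407). At the entry of the pathway PAL4, PAL1 and 4CL2 rose (log2 change 2.63, 1.53 and 2.05). With the spread of all 23 libraries F5H1 did not pass (adjusted p = 0.098).

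Among 5 tested carbonic anhydrases, BCA4 alone was called, with 28.9, 11 and 11.3 rescaled TPM in post-secretory and 2.34, 2.41 and 3.57 in secretory libraries (log2 change 2.13, SE 0.37, adjusted p = 0.00243). BCA1 had overlapping groups, with 3.91, 34.3 and 12.6 rescaled TPM in post-secretory against 4.68, 12.1 and 16.1 in secretory libraries (log2 change 0.30, SE 0.73, adjusted p = 0.739). AT4G20860, a berberine bridge enzyme-like oxidase, stood at 257, 332 and 388 rescaled TPM in post-secretory and 212, 1103 and 326 in secretory libraries (log2 change -0.40, SE 0.57, adjusted p = 0.563). Of 11 tested flavonoid genes 5 rose (45.5%, against 35% of all tested loci) and 2 fell (18.2%, against 27.5%). Among the risers MYB111 was listed at 0 in all secretory libraries and could only be higher. FLS1, flavonol synthase, had 3.12, 3.65 and 5.99 rescaled TPM in post-secretory and 66.7, 47 and 39.2 in secretory libraries (log2 change -3.31, SE 0.26, adjusted p = 0.000129). F3'H, which hydroxylates the B ring, rose by 2.74 on the log2 scale (SE 0.17, adjusted p = 7.62e-05).

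Amino acid carriers were lower as well: of 13 tested genes of amino acid transport and nitrogen remobilization 7 fell and 3 rose. Of the 7, 3 fell under all 5 scalings. CAT1, a cationic amino acid importer, had 7.03, 3.65 and 3.33 rescaled TPM in post-secretory and 102, 100 and 78.5 in secretory libraries (log2 change -4.11, SE 0.25, adjusted p = 7.62e-05). LHT1 and AAP3, carriers of neutral and basic amino acids, fell by 3.02 and 2.49 on the log2 scale. GDH2 and GDH1, subunits of glutamate dehydrogenase, rose by 1.52 and 1.2, and the plastid glutamine synthetase GLN2 by 0.87.

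The secretory machinery was lower at the endoplasmic reticulum. Of 14 tested genes of protein folding there 10 fell, 5 of them under all 5 scalings, and 1 rose, and they summed to 764.3 to 1085 rescaled TPM in post-secretory and 3029 to 3112 in secretory nectaries. BIP2, an abundant chaperone of this compartment, had 75, 75.3 and 89.8 rescaled TPM in post-secretory and 442, 610 and 526 in secretory libraries (log2 change -2.69, SE 0.15, adjusted p = 7.01e-05). PDIL2-1, a protein disulfide isomerase, had 38.3, 34.3 and 47.9 rescaled TPM in post-secretory against 247, 233 and 198 in secretory libraries (log2 change -2.47, SE 0.16, adjusted p = 7.62e-05). Both had separate groups. CNX1, calnexin, and CRT1, calreticulin, fell by 2.17 and 1.55 on the log2 scale, and CRT3 rose by 0.78 (SE 0.15, adjusted p = 0.00366). Genes of exocytosis itself moved less. Of 14 tested SNARE and exocyst genes 6 fell by 0.48 to 1.03 on the log2 scale and none rose. None was called under all 5 scalings, KEU, SEC8, SNAP33 and SEC10 had changes of 0.17 to 0.39 as deposited, only 2 fell without secretory B, post-secretory B or post-secretory C, and the list median was -0.28 with median ratios and 0.50 as deposited.

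Respiratory genes fell in 8 of 11 tested cases, 2 of them under all 5 scalings, and 1 rose. AOX1A, the alternative oxidase, had 7.81, 7.31 and 7.32 rescaled TPM in post-secretory and 32.8, 32.6 and 32.1 in secretory libraries (log2 change -1.98, SE 0.10, adjusted p = 6.39e-05). IDH1, isocitrate dehydrogenase, had 18.7, 13.9 and 18 rescaled TPM in post-secretory against 63.2, 61.5 and 55.3 in secretory libraries (log2 change -1.78, SE 0.14, adjusted p = 0.000129). AOX1A did not pass with the spread of all 23 libraries (adjusted p = 0.0667). PCK1, which turns oxaloacetate into phosphoenolpyruvate, had 21.9, 18.3 and 26 rescaled TPM in post-secretory and 596, 540 and 439 in secretory libraries (log2 change -4.52, SE 0.17, adjusted p = 6.39e-05). HXK1, hexokinase, fell by 2.49 on the log2 scale. ICL and MLS, the enzymes particular to the glyoxylate cycle, rose. ICL had 13.3, 9.5 and 7.32 rescaled TPM in post-secretory and 0, 1.21 and 1.78 in secretory libraries (log2 change 2.56, SE 0.41, adjusted p = 0.00164), and MLS rose by 1.33 but not with the spread of all 23 libraries (adjusted p = 0.303).

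Aquaporins, which are water channels, were called less often than all tested loci, but this did not hold for changes past 2-fold. Of 19 tested members 4 fell (21.1%, against 27.5% of all tested loci), 5 rose (26.3%, against 35%) and 10 were not called. Past 2-fold 4 fell and 2 rose, where 5.51% and 8.86% of all tested loci did. The list median was 0.001. PIP2;6, a plasma membrane aquaporin, had 5.47, 4.38 and 2.66 rescaled TPM in post-secretory and 35.1, 170 and 112 in secretory libraries (log2 change -4.14, SE 0.55, adjusted p = 0.00077). PIP1;3 and PIP2;5, of the same membrane, fell by 3.06 and 2.66 on the log2 scale, and the vacuolar TIP2;1 by 1.81. PIP2;7 went the other way, with 136, 196 and 176 rescaled TPM in post-secretory against 31.6, 33.8 and 53.5 in secretory libraries (log2 change 2.09, SE 0.23, adjusted p = 0.000365), as did PIP2;8 (2.03, SE 0.19, adjusted p = 0.000222). Of 4 tested plasma membrane proton pumps, AHA4 had 39.8, 30 and 35.3 rescaled TPM in post-secretory and 108, 85.6 and 105 in secretory libraries (log2 change -1.48, SE 0.15, adjusted p = 0.000249). AHA11 and AHA2 fell by 1.09 and 0.66 on the log2 scale. On the deposited scale AHA4 (adjusted p = 0.0534) and AHA11 (0.563) were not called and the change of AHA2 was 0.21, and AHA4 did not pass with the spread of all 23 libraries either (adjusted p = 0.0848).

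Wall loosening genes mostly rose, 9 of 13 tested members against 2 that fell. EXPA6, an expansin, had 76.5, 97.9 and 85.9 rescaled TPM in post-secretory and 2.34, 2.41 and 5.35 in secretory libraries (log2 change 4.39, SE 0.26, adjusted p = 7.45e-05). EXPB3, EXPA10 and EXPA15, further expansins, rose by 3.37, 2.99 and 2.57 on the log2 scale. XTH9, a xyloglucan-modifying enzyme, rose by 2.37, whereas XTH28 of the same family had 18, 11.7 and 22.6 rescaled TPM in post-secretory against 143, 200 and 200 in secretory libraries (log2 change -3.33, SE 0.25, adjusted p = 0.000113). Of the genes known from organ abscission in this list, HSL2, a receptor kinase, was at 2.34, 1.46 and 2 rescaled TPM in post-secretory libraries and listed at 0 in secretory ones. EVR rose by 1.83 and NEV fell by 0.63 on the log2 scale. Of 11 tested cellulose and secondary wall genes 3 fell and 1 rose, none of them stable to scaling, and CESA1 and KOR1, both of cellulose synthesis, had changes of 0.30 and 0.43 as deposited. The riser, MYB58, was listed at 0 in all secretory libraries and could only be higher.

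Of 20 tested cutin and wax genes 9 rose (45%, against 35% of all tested loci) and 5 fell (25%, against 27.5%). CYP86A2, a fatty acid hydroxylase of cutin synthesis, had 2.34, 2.19 and 0.666 rescaled TPM in post-secretory and 164, 105 and 76.7 in secretory libraries (log2 change -5.41, SE 0.36, adjusted p = 8.34e-05). DCR, an acyltransferase needed for cutin, had 11.7, 12.4 and 18.6 rescaled TPM in post-secretory against 0, 1.21 and 1.78 in secretory libraries (log2 change 3.03, SE 0.40, adjusted p = 0.000706). CER4, which makes primary alcohols of wax, stood at 7.03, 7.31 and 8.65 rescaled TPM in post-secretory libraries and was listed at 0 in all secretory ones. CYP77A6, another riser of the list, was also at 0 there, and both could only be higher. LACS2, which activates fatty acids for cutin, rose by 1.85 on the log2 scale, and KCR1 and CER10, of the fatty acid elongase, fell by 1.5 and 1.46. Without post-secretory B, 3 members fell.

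Genes of ageing were called at shares near or below those of all tested loci. Of 16 tested genes of chlorophyll breakdown and senescence control 6 rose (37.5%, against 35% of all tested loci) and 4 fell (25%, against 27.5%). SAG21, a senescence-associated gene of the mitochondrion, had 263, 194 and 156 rescaled TPM in post-secretory and 2288, 3785 and 3925 in secretory libraries (log2 change -4.01, SE 0.29, adjusted p = 9.89e-05). NYC1 and SGR1, both of chlorophyll breakdown, fell by 1.99 and 1.93 on the log2 scale. SAG12, the cysteine protease used as a marker of leaf senescence, had 223, 2.92 and 43.3 rescaled TPM in post-secretory against 2.34, 0 and 1.78 in secretory libraries (log2 change 4.01, SE 1.36, adjusted p = 0.0375). The post-secretory libraries differed widely among themselves here, and SAG12 was not called with 5 of the 6 libraries left out in turn (adjusted p = 0.0532 to 0.11). WRKY53, an early regulator of leaf senescence, had 7.81, 12.4 and 14.6 rescaled TPM in post-secretory and 0, 0 and 1.78 in secretory libraries (log2 change 3.13, SE 0.44, adjusted p = 0.00101). NAP and ORE1, NAC factors of senescence, were not called (adjusted p = 0.0612 and 0.146). Of 12 tested autophagy genes 2 rose (16.7%) and 3 fell (25%), and ATG8A among the fallers had a change of 0.011 as deposited. Of 8 tested genes of developmental cell death 1 rose (12.5%) and 2 fell (25%). These shares lay below those of all tested loci. BFN1, a nuclease of dying cells, had overlapping groups (log2 change 0.08, SE 0.22, adjusted p = 0.76).

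Of 16 tested defence genes 8 rose (50%, against 35% of all tested loci) and 4 fell (25%, against 27.5%). PR3, a chitinase, had 383, 195 and 133 rescaled TPM in post-secretory and 10.5, 10.9 and 23.2 in secretory libraries (log2 change 3.86, SE 0.44, adjusted p = 0.00041). PR4 had 50, 19 and 29.9 rescaled TPM in post-secretory against 3.51, 1.21 and 1.78 in secretory libraries (log2 change 3.38, SE 0.39, adjusted p = 0.000443). WRKY70 and WRKY33, regulators of defence, rose by 2.34 and 1.90 on the log2 scale. PAD4 and EDS1, which act together in immunity, fell by 2.57 and 1.5. With the spread of all 23 libraries PR3 (adjusted p = 0.109), PR4 (0.217) and WRKY33 (0.135) did not pass.

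Clock and heat genes also differed between the stages, and the hour of harvest was labelled for the secretory stage only. Of 17 tested clock genes 12 fell, 6 of them under all 5 scalings, and 1 rose. RVE8, a morning factor, had 4.69, 4.38 and 4.66 rescaled TPM in post-secretory and 25.7, 107 and 62.4 in secretory libraries (log2 change -3.35, SE 0.46, adjusted p = 0.000871). ELF4, an evening gene, had 100, 147 and 113 rescaled TPM in post-secretory against 23.4, 27.7 and 37.5 in secretory libraries (log2 change 1.99, SE 0.21, adjusted p = 0.000309). Groups were separate for both, and stage and hour of harvest cannot be told apart. Of 11 tested genes of heat and touch 8 fell, 5 of them stable to scaling, and 1 rose. HSP17.6II, a small heat shock protein, had 17.2, 21.2 and 16.6 rescaled TPM in post-secretory and 260, 391 and 232 in secretory libraries (log2 change -3.90, SE 0.21, adjusted p = 6.39e-05). MBF1C, a coactivator induced by heat, was at 0.781, 0.731 and 0.666 rescaled TPM in post-secretory against 55, 107 and 91 in secretory libraries (log2 change -5.58, SE 0.25, adjusted p = 6.39e-05). The list summed to 1203 to 1361 rescaled TPM in post-secretory and 2735 to 5937 in secretory nectaries, beside 1308 to 1547 in pre-secretory ones. The part of these conditions in other changes was not tested.

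**Figure D4:**
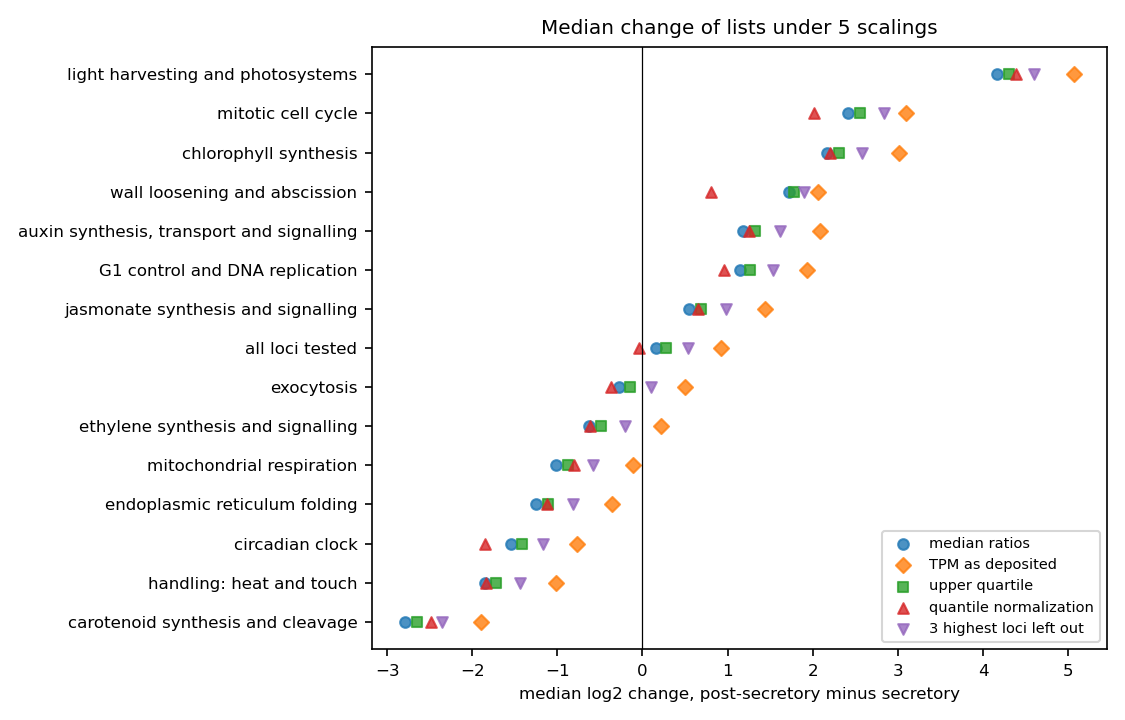
Median log2 change (horizontal axis, post-secretory minus secretory) of 14 lists and of all tested loci, with 1 marker per scaling. The photosystem, cell cycle, chlorophyll, wall loosening, auxin and jasmonate lists stay above 0 and the carotenoid, heat, clock, endoplasmic reticulum and respiration lists below 0 under all 5 scalings, while the exocytosis and ethylene lists and all loci cross 0.

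Markers of neighbouring tissues were measured beside these lists. Vascular markers rose in 5 of 9 cases (55.6%, against 35% of all tested loci), but only 1 of the 5 under all 5 scalings. The list median was 0.76 with median ratios and -0.13 under quantile normalization. The list summed to 29.7 to 31.4 rescaled TPM in post-secretory and 13.3 to 23.2 in secretory libraries, beside 156 to 162 in leaf. XCP2, SEOR2 and FTIP1 among the vascular markers were listed at 0 in all secretory libraries and at 1 to 3 TPM as deposited in post-secretory ones. These 3 passed the filter through the post-secretory libraries alone and could only be higher, so their direction adds nothing to the count. XCP2 and SEOR2 stood at 1 TPM in each post-secretory library, which is 1 rounding step, and their change was -0.13 under quantile normalization. Carpel and ovule markers summed to 93.7 to 112 rescaled TPM in post-secretory and 94.8 to 118 in secretory libraries, with 3 of 6 higher and 1 lower, and one of the 3, NGA1, had a change of -0.033 under quantile normalization. ANT, an organ growth factor in that list, had 5.47, 14.6 and 9.32 rescaled TPM in post-secretory libraries and was listed at 0 in secretory ones. NGA1 was at 0 there too, and both could only be higher. Petal markers summed to 39.5 to 48.6 rescaled TPM in post-secretory and 59.1 to 139 in secretory libraries, with 2 of 4 lower, and pollen and anther markers to 0.731 to 3.91 in post-secretory and 8.92 to 21.7 in secretory libraries, with 2 of 3 lower. The part of tissue carried along in dissection was not tested.

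Epidermis and stomata markers summed to 264 to 346 rescaled TPM in post-secretory and 115 to 234 in secretory libraries. Of 11 tested, 6 rose (54.5%, against 35% of all tested loci) and 1 fell (9.09%, against 27.5%). Among the risers ERL1 was listed at 0 in all secretory libraries and could only be higher. ERECTA, a receptor kinase of organ growth and stomatal patterning, had 55.5, 93.5 and 72.5 rescaled TPM in post-secretory and 1.17, 1.21 and 3.57 in secretory libraries (log2 change 4.71, SE 0.33, adjusted p = 9.68e-05). PDF1, an epidermal protein, had 104, 113 and 138 rescaled TPM in post-secretory against 3.51, 3.62 and 8.92 in secretory libraries (log2 change 4.32, SE 0.31, adjusted p = 0.000102). Both were far apart between groups. The stomatal genes SLAC1, EPF2 and FAMA were listed at 0 in all 6 libraries. HT1, a guard cell kinase, fell by 1.80 on the log2 scale and was not called as deposited (adjusted p = 0.126).

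Set beside the 3 pre-secretory libraries, 24 to 48 h before the flower opened, post-secretory nectaries also stood apart. Of all tested loci, 4047 (32.6%) had all post-secretory values above all pre-secretory ones and 3044 (24.5%) had all below. Light harvesting and photosystem genes lay above in 31 of 37 cases, mitotic genes in 14 of 15 and chlorophyll synthesis genes in 11 of 13. Of 12 Calvin cycle genes, 2 lay above and 1 below, and the list summed to 795.1 to 3499 rescaled TPM in post-secretory and 282.2 to 6316 in pre-secretory libraries. Carotenoid genes lay below in 14 of 19 cases, endoplasmic reticulum folding genes in 10 of 14, nectary markers in 5 of 6 and clock genes in 11 of 17. SWEET9 stood at 3534 to 6672 and BIP2 at 167 to 333 rescaled TPM in pre-secretory libraries, above their post-secretory values. These are levels on the scale of the 6 compared libraries and were not tested.

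**Figure D5:**
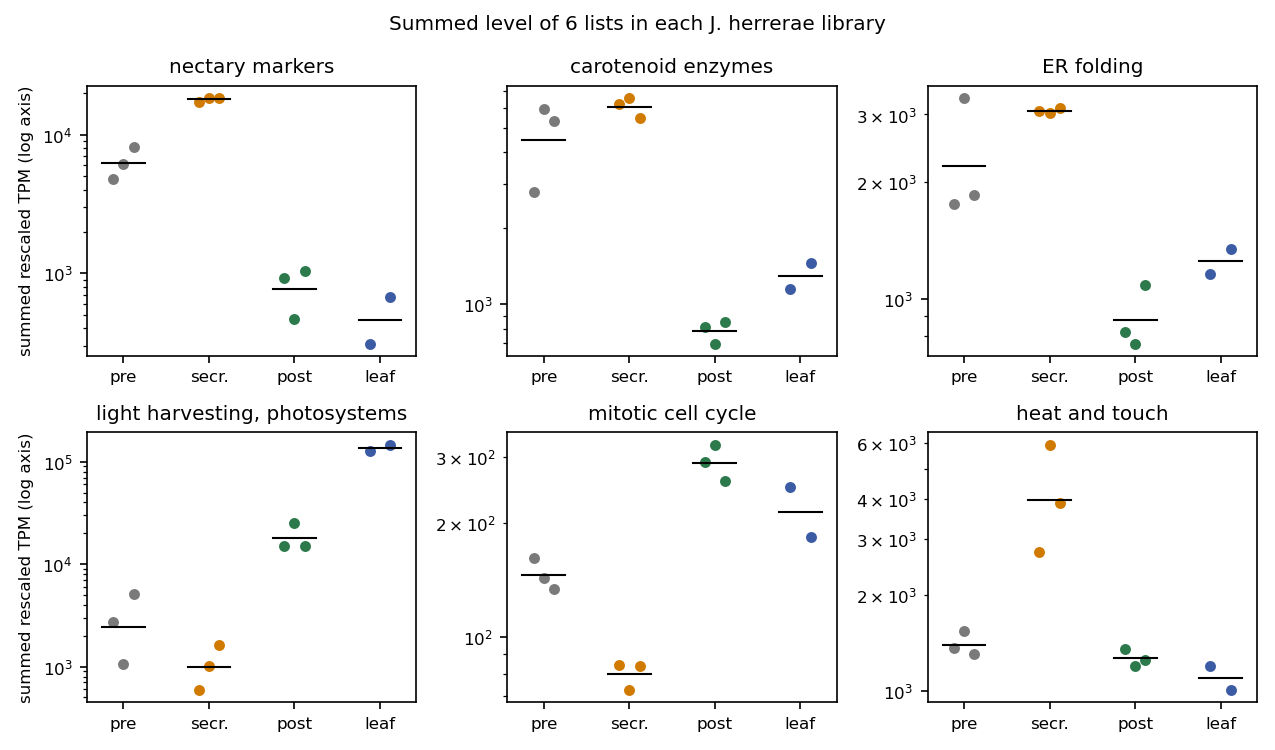
Summed rescaled TPM (log axis) of 6 lists in each J. herrerae library, by stage from pre-secretory through secretory and post-secretory nectary, with leaf at the right and lines at the geometric mean. Nectary markers are highest in secretory libraries at 17300 to 18270, and mitotic genes are highest in post-secretory ones at 258.2 to 323.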

How the data were processed

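RNA from 3 post-secretory and 3 secretory J. herrerae nectary samples was compared. Per the labels' protocols, stranded TruSeq mRNA libraries were sequenced as 150 bp read pairs (NovaSeq, 20 M reads or more on average). The submitters' processing notes name kallisto 0.46.1. The authors deposited a score, namely TPM they had rounded to whole numbers. Which reference they used, and how they matched and summed transcripts per Arabidopsis locus, is not given in the sources used here.

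Rescaling used median ratios over the 10713 loci above 0 in all 6 libraries. Tested were the 12421 loci that reached 1 TPM in 3 or more libraries (512 of the other 749 were at 0 throughout) in limma 3.58.1 on R 4.3.3, on log2(value + 1) with a trended prior variance and Benjamini-Hochberg adjustment over all tested loci. A locus at 0 in every library of a group passed this filter through the other group alone, so its direction was fixed. The 2-fold test was limma's treat. The steps were run on simulated data in which only a small share of loci changed. That run cannot judge the scaling, since 62.5% of the tested loci were called here. Tests are two-sided, and none of the libraries were identical. Figures used matplotlib 3.10.9.

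The comparison and the 45 lists (610 of 803 loci in the table) were chosen with earlier results of these data known, and no list was tested as a set. Genes were named by a rule: 9 genes always, up to 5 called members without overlap by size of change from each list with at least 3 called, members of small counts, 2 loci each way outside the lists (10 TPM or more in the higher group), and the 3 highest loci. Further members are named after their values were seen. Alternatives were other pseudocounts, filters, scalings, library sets, no variance trend, a replicate block and leaving out each library.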

Additional observations from a re-analysis of the deposited data

How the results depend on the processing

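The count of called loci stayed within 1.5 times under the pseudocounts, filters, scalings and the fit with pre-secretory libraries added, but with the spread of all 23 libraries 4325 loci were called (2331 higher, 1994 lower), 287 of them past 2-fold (148 and 139). Directions depended on scaling: as deposited, 7076 were higher and 748 lower, with 2787 past 2-fold (2627 and 160). For 1272 loci called with median ratios the estimate had the other sign as deposited, whether or not it was called there. With the 3 highest loci left out, 2049 were lower and 1839 and 367 past 2-fold higher and lower. A pseudocount of 5 gave 840 past 2-fold (426 and 414). Called in 1 direction under all 5 scalings, a count added after seeing the data, were 3782, 745 of them lower. Leaving out each library gave 6377 to 7896 called (3551 to 4390 higher, 2826 to 3506 lower) and 1181 to 1846 past 2-fold (735 to 1112 and 446 to 747). Of 200 called named genes, 119 kept their call in every alternative run that tested them and 70 lost it with all 23 libraries. The filter on mean TPM did not test some of the low genes. As deposited, the direction turned for P5CS2 (0.038), ATG8A (0.011), AHA2 (0.21), KEU (0.17), SEC8 (0.23), SNAP33 (0.34), SEC10 (0.39), CESA1 (0.30) and KOR1 (0.43), and under quantile normalization for NGA1 (-0.033), XCP2 (-0.13) and SEOR2 (-0.13). The cause was not tested. Whether the letters pair the libraries cannot be told, since with 3 libraries in a group the deviations from its mean cancel by construction. Same-letter deviations correlated at 0.00317, -0.0436 and 0.112, and only the C libraries correlated best with their own letter. A replicate block called 7099 loci, 1536 past 2-fold.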

Other observations

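Outside the lists, the locus with the largest rise was AT3G12145, with 458, 709 and 510 rescaled TPM in post-secretory and 3.51, 6.03 and 21.4 in secretory libraries (log2 change 5.95). AT1G60590 had 83.6, 113 and 94.5 rescaled TPM in post-secretory and 0, 0 and 3.57 in secretory libraries (log2 change 5.87). The largest fall was that of AT1G52690, with 21.1, 6.58 and 2.00 rescaled TPM in post-secretory and 1002, 784 and 574 in secretory libraries (log2 change -6.59). AT3G11480 had 6.25, 4.38 and 0.666 rescaled TPM in post-secretory and 336, 235 and 284 in secretory libraries (log2 change -6.14). All 4 were called past 2-fold and under all 5 scalings, and their groups do not overlap.

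Plastid-encoded loci made up 0.335 to 0.392% of the listed TPM in post-secretory and 0.970 to 1.559% in secretory libraries, whereas the nuclear photosystem genes were higher in post-secretory libraries. The origin of the plastid transcripts was not tested.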
